A study of Homo sapiens with 5 samples.

Results

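Endothelial cells of the host mouse brain were examined in grafts of human brain organoids, as 165 cells out of 4961 host cells and 40966 barcodes in 4 graft libraries. A host cell was a barcode with over 500 UMIs on mouse genes and under 20% of its UMIs on human genes, where a UMI (unique molecular identifier) marks an RNA molecule before amplification so that its copies are counted together. A host cell was taken as endothelial when at least 3 of 6 genes had a UMI, namely Cldn5, Flt1, Ly6c1, Pglyrp1, Egfl7 and Adgrl4. The measured values of these 6 genes chose the cells. Gene levels in the chosen cells are therefore set beside those of other host cells as a description, with no test. Only the difference between the stages was tested against other host cells, namely the microglia-like ones defined below.

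Human brain organoids were made from H9: AAVS-ChR2-EYFP, a derivative of the human embryonic stem cell line H9 that carries a light-gated channel and a yellow fluorescent protein, and were implanted into the prefrontal cortex (PFC) or the hippocampus (HIP) of mice. The study's methods call the hosts SCID mice, a strain without working T and B cells, and its results call them SCID-Beige, a strain whose natural killer cells are impaired as well, and they were young adults at grafting. The labels give the wild type genotype for every sample and no drug or other agent. Grafts were taken 2 or 4 months post transplantation (MPT), which gave HIP_2MPT, PFC_2MPT, HIP_4MPT and PFC_4MPT with 1 library each. Fluorescent tissue was cut out under a microscope and digested with trypsin, so that vessels inside the graft and vessels of the brain around it cannot be told apart. How many mice went into each library is not given in the sources used here, and no ungrafted mouse brain was analysed here.

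Brain endothelium lines the vessels of the brain and forms the blood-brain barrier. Its cells are sealed by tight junctions, take up few vesicles from the blood and carry transporters that bring in glucose and amino acids and pump drugs out, a state kept up by Wnt signals from neural cells. Along the vessel tree, arterial, capillary and venous endothelium differ in their genes, and endothelium outside the barrier is fenestrated and carries Plvap, the protein of the fenestral diaphragm.

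Host endothelium made up a larger share of host cells in both 4MPT libraries than in both 2MPT libraries. There were 8 endothelial cells among 916 host cells in HIP_2MPT, or 0.873% with an exact (Clopper-Pearson) 95% interval of 0.378 to 1.71%, and 9 among 772 in PFC_2MPT, or 1.17% (0.534 to 2.20%). At 4MPT there were 103 among 2071 in HIP_4MPT, or 4.97% (4.08 to 6.0%), and 45 among 1202 in PFC_4MPT, or 3.74% (2.74 to 4.98%). The intervals of the stages did not overlap, those of the sites within a stage did, and all intervals here cover counting error only. With a human share under 10% the interval of PFC_4MPT (1.74 to 4.46%) overlapped those of HIP_2MPT (0.181 to 2.53%) and PFC_2MPT (0.561 to 2.31%), and without cells with markers of another type it began at 2.18%, below the upper bound of 2.20% in PFC_2MPT. Per 1000 human barcodes, the endothelial cells numbered 0.884, 1.47, 14.6 and 4.53 in HIP_2MPT, PFC_2MPT, HIP_4MPT and PFC_4MPT, the order used for every series of 4 values below. HIP_4MPT also held 450 host cells with choroid plexus markers outside endothelium, against at most 2 elsewhere. Choroid plexus and red blood cells were then taken out of the host cells, but not out of the endothelial cells. The endothelial share was 0.902, 1.20, 6.37 and 3.75%, with intervals of 5.23 to 7.67% in HIP_4MPT and 2.75 to 4.99% in PFC_4MPT that did not overlap. The 6 endothelial cells of HIP_4MPT with at least 3 choroid plexus markers stayed in this count. Whether the intervals stay apart without those 6 cells was not tested. The cells were chosen by their values, so the shares carry no test, and how much host tissue was cut out with a graft is not given in the sources used here.

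**Figure D1:**
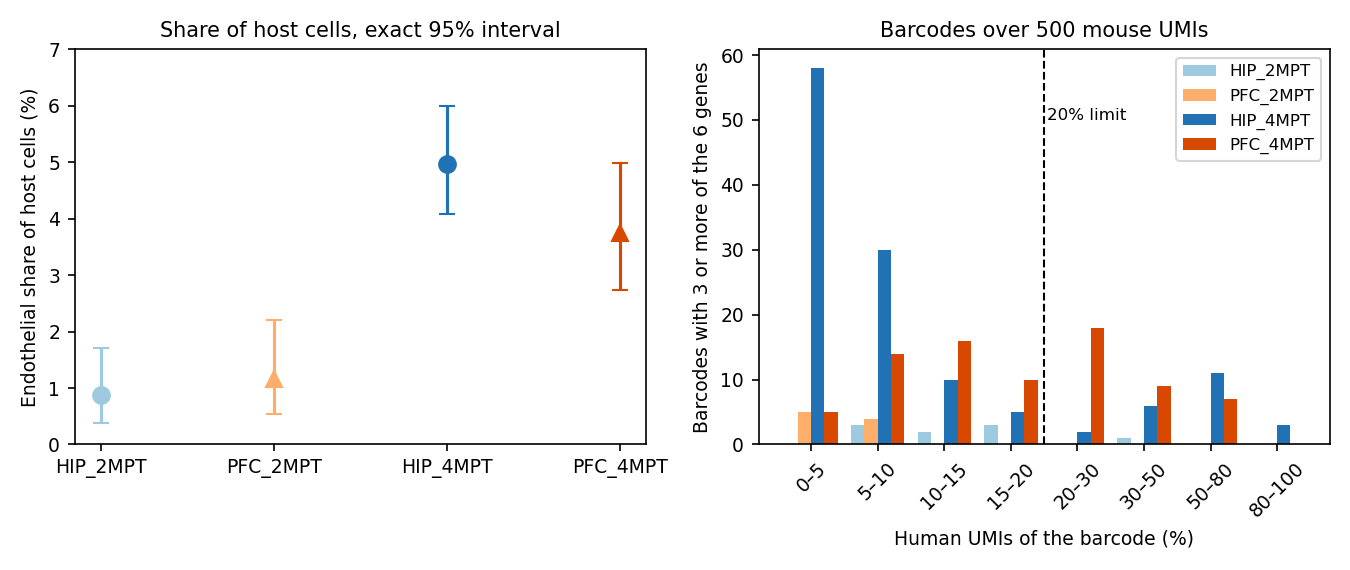
Left, endothelial share of host cells (%) in each of the 4 libraries, with exact 95% intervals that cover counting error only; the 4MPT shares of 4.97% and 3.74% lie above the 2MPT shares of 0.873% and 1.17%. Right, barcodes over 500 mouse UMIs that carry at least 3 of the 6 endothelial genes, by the human percentage of their UMIs; the dashed line is the 20% limit, and 54 barcodes lie between it and 80%.

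The limit on genes bore mainly on HIP_2MPT. Of the 165 cells, 100 carried all 6 genes (0, 2, 69 and 29) and 10 carried exactly 3 (3, 2, 4 and 1), while 10 host cells carried 2 and 264 carried 1. With 4 genes required, the share of host cells was 0.546% in HIP_2MPT in place of 0.873%, and 0.907, 4.78 and 3.66% in the other libraries. The highest human share inside the limit was 19.9% in HIP_4MPT and 19.5% in PFC_4MPT, and the lowest outside it among barcodes with 3 or more of the genes was 20.2% and 20.4%. Barcodes with 20 to 80% human UMIs and at least 3 of the genes numbered 1, 0, 19 and 34, beside 45 endothelial cells in PFC_4MPT. These mixed barcodes were left out. With them counted, the endothelial shares were 0.773, 1.07, 4.91 and 4.17%. Pairs of libraries shared between 17 and 50 cell barcodes, none of them an endothelial cell in both.

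The 2MPT cells were few and shallow. The endothelial cells of a library summed to 7639, 12544, 345383 and 141702 mouse UMIs, with a median of 943.5, 1072, 2095 and 1926 per cell beside 1264, 2448, 2950 and 2458 in the other host cells. A gene without a UMI could therefore lie anywhere up to 393, 239, 8.69 and 21.2 CPM (UMIs of a gene per 1000000 mouse UMIs of the summed cells), the level of 3 counts, so that absence at 2MPT is not detectable for most genes. The median human share of the endothelial cells was 13.9, 4.36, 4.70 and 11.4%, beside 11.1, 2.28, 3.96 and 9.29% in the other host cells. Levels below are CPM of the summed cells of a library, and they compare libraries for a gene, not genes with each other.

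The 6 genes that chose the cells were detected in most of them. Ly6c1, a surface antigen of brain and other endothelia, was at 8378, 10124, 10759 and 8369.7 CPM and in every 4MPT cell. Cldn5, the claudin that seals brain endothelial tight junctions, was at 2618, 1435, 2021 and 2526 CPM, and Pglyrp1, a peptidoglycan-binding protein, at 3273, 2949.6, 4077 and 4008 CPM. The levels of the stages overlapped in Ly6c1 and Cldn5, while Pglyrp1 was higher in both 4MPT libraries, with counting intervals that overlapped between the stages. Flt1, a VEGF receptor, was at 2095, 1913, 2125 and 1256 CPM, Egfl7, a secreted endothelial protein, at 1178, 877, 1161 and 1242 CPM, and Adgrl4, an adhesion receptor of endothelium, at 262, 558, 1549 and 903 CPM. Adgrl4 was lower in both 2MPT libraries than in both 4MPT libraries, from 2 and 7 UMIs at 2MPT. Both of its 2MPT counting intervals overlapped that of PFC_4MPT. Among microglia-like host cells (3 or more of 6 microglia markers and under 3 of the endothelial genes), which should lack them, each of the 6 genes taken singly had a UMI in no more than 2.66% of cells in a library, at unthinned depth. The limit of under 3 endothelial genes fixed part of this.

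Other genes also set these cells apart from the other host cells. The 20 genes with the largest ratio to the other host cells, taken as the lowest ratio over the 4 libraries with a pseudocount of 1 CPM among 772 genes of at least 200 CPM, were Ptprb, Sox18, Cyyr1, Adgrf5, Foxq1, Hmcn1, Sox17, Srarp, Grrp1, Atp10a, Wfdc1, AU021092, Itm2a, Degs2, Jcad, Kank3, Icam2, Abcb1a, Esam and Prom1. Ptprb, the endothelial tyrosine phosphatase that restrains TIE2, was at 655, 319, 634 and 374 CPM and its lowest ratio was 283. Sox18, an endothelial transcription factor, was at 393, 797, 371 and 423 CPM and its lowest ratio was 281. Both were at or near 0 in other host cells of every library. Itm2a, a membrane protein enriched in brain endothelium, was at 3011, 4544, 1795 and 1891 CPM against 0.781, 2.20, 13.3 and 5.23 CPM in the other host cells. Its 2MPT levels were above its 4MPT levels. The counting interval of HIP_2MPT overlapped those of both 4MPT libraries, and that of PFC_2MPT lay above them. Bsg, the partner of monocarboxylate transporters, was at 13352.5, 17777, 8437 and 9449 CPM against 309, 389, 2723 and 409 CPM. Its 2MPT levels were also above its 4MPT levels, here with counting intervals that did not overlap between the stages. In the host cells outside endothelium Bsg was highest in HIP_4MPT. Ptprb, Sox18, Sox17, Icam2, Esam and Adgrf5 are known endothelial genes and Abcb1a and Foxq1 known brain endothelial ones. Since the 20 were picked for their level in these cells, they describe the cells and are no check of the label.

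Markers of other cells were present in some of the cells. Of the 165 cells, 29 carried at least 3 markers of another cell type (2, 0, 19 and 8), which were pericyte markers in 12 cells, microglia markers in 7, choroid plexus markers in 6, astrocyte markers in 3, red blood cell markers in 2, and neutrophil or oligodendrocyte markers in 1 each, a cell being counted under each type it met. The 6 pericyte markers summed to 916, 79.7, 1355 and 706 CPM, led by Rgs5 and Vtn, with Abcc9 and Pdgfrb at 0 in both 2MPT libraries. The 6 microglia markers summed to 655, 0, 695 and 1298.5 CPM, with C1qa the highest where any was found, and Tmem119 was at 0 in HIP_4MPT. Smooth muscle, fibroblast, border macrophage, ependymal, oligodendrocyte progenitor and T or NK cell markers summed to at most 29.0 CPM in any library, and the 4 T and NK cell markers were at 0 in all 4. The 5 astrocyte markers summed to 131, 79.7, 98.4 and 826 CPM, the 4 neuron markers to 0, 0, 34.7 and 155 CPM and the 5 oligodendrocyte markers to 393, 0, 57.9 and 127 CPM.

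**Figure D2:**
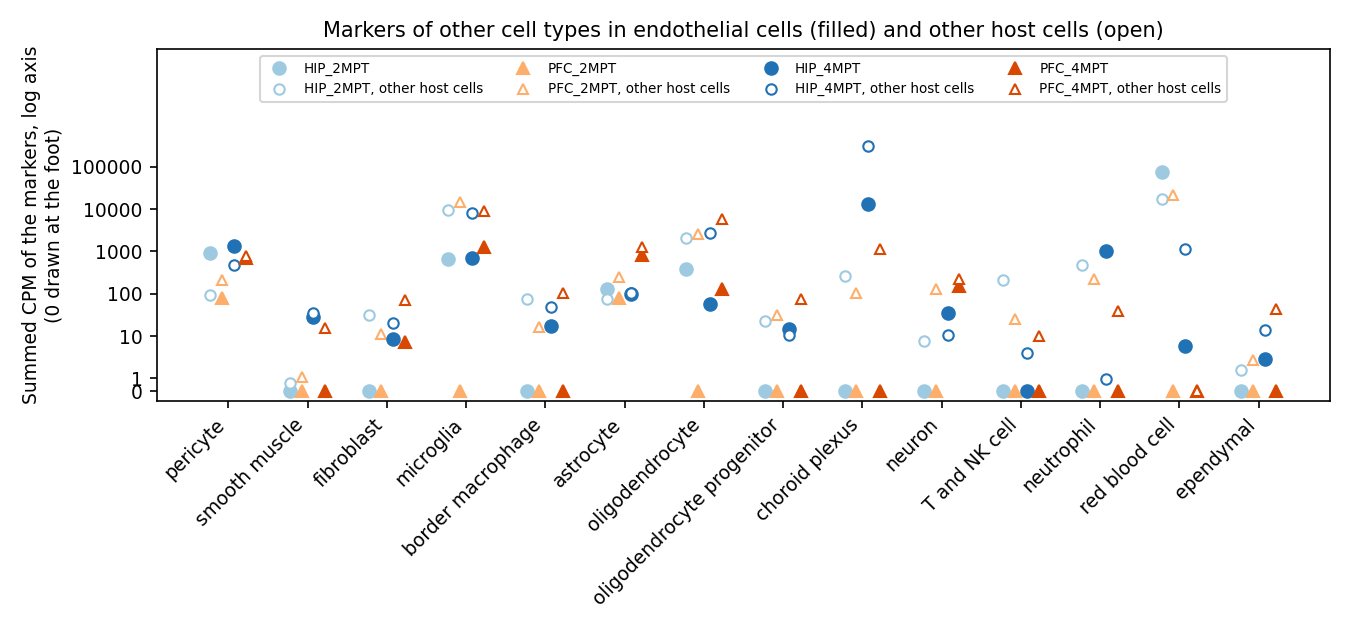
Summed level (CPM, log axis, 0 drawn at the foot) of the markers of 14 other cell types in the endothelial cells (filled) and in the other host cells (open) of each library. Choroid plexus markers reach 13214 CPM in the endothelial cells of HIP_4MPT and red blood cell markers 75141 CPM in those of HIP_2MPT, and T and NK cell markers are at 0 in the endothelial cells of all 4 libraries.

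Transcripts of other cells moved with the library in 2 cases. Ttr, the transthyretin of choroid plexus, was in all 103 endothelial cells of HIP_4MPT, with a median of 11 UMIs and between 2 and 1475, and in 0 cells of the other libraries. In that library it was also in 100% of microglia-like cells at the same median of 11 UMIs. The 450 choroid plexus cells were in that library too. Haemoglobin genes summed to 75141 CPM in HIP_2MPT, and 562 of those 574 UMIs were in 1 cell. These genes are not read as endothelial.

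Tight junction genes were present in the endothelium of both sites and stages. Of the 13 genes listed, 10 had a UMI in both 4MPT libraries and 9 were higher there than in the other host cells in both, beside 33.1% of the 12981 genes detected in endothelium, and the list, which includes Cldn5, one of the genes that chose the cells, summed to 4189, 4385, 4615 and 5130.5 CPM against 142, 261, 224 and 318 CPM in the other host cells. Cldn5 gave 2618, 1435, 2021 and 2526 CPM of these sums, so that part of the contrast was set by the choice, and Cldn5 is among the 9. Esam, an adhesion molecule of endothelial junctions, was at 524, 1196, 953 and 1143 CPM, and Tjp1, the scaffold ZO-1, at 393, 319, 669 and 445 CPM. F11r, the junctional adhesion molecule JAM-A, was at 262, 478, 168 and 261 CPM, and Lsr, the angulin of tricellular junctions, at 131, 319, 229 and 261 CPM. Ocln, or occludin, was at 0, 239, 182 and 198 CPM, where the 0 rests on only 7639 UMIs. Cgn and Marveld3 had no UMI in any library, and Cldn12 had a UMI in PFC_2MPT alone.

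Adherens junction and endothelial adhesion genes were all found. Each of the 10 listed genes had a UMI in both 4MPT libraries and exceeded the other host cells there, beside 33.1% of detected genes. The list summed to 1964, 1913, 1879 and 1941 CPM. The 2MPT sums come from only 7639 and 12544 mouse UMIs in all, so that their closeness to the 4MPT sums does not show a constant level. Cdh5, the cadherin VE-cadherin, was at 262, 79.7, 194 and 219 CPM, and Pecam1, which encodes CD31, at 393, 159, 321 and 296 CPM. Neither gene separated the stages, from 2 and 1 UMIs of Cdh5 and 3 and 2 UMIs of Pecam1 in HIP_2MPT and PFC_2MPT. Icam2 was at 524, 239, 174 and 388 CPM, Emcn, a sialomucin of capillaries and veins, at 262, 797, 475 and 289 CPM, and Ctnnb1, or beta-catenin, at 262, 319, 197 and 318 CPM.

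Transporter genes of the barrier were found in endothelium and hardly in the other host cells. Of 20 listed genes, 19 had a UMI in both 4MPT libraries, 18 exceeded the other host cells in both, beside 33.1% of detected genes, and 15 did so in all 4 libraries, beside 6.34%, and they summed to 9163.5, 12994, 11735 and 10536 CPM against 539.8, 629, 508 and 695 CPM. Slc2a1, the glucose transporter GLUT1, was at 1178 CPM (539 to 2237) in HIP_2MPT and 2073 CPM (1354 to 3037) in PFC_2MPT, with exact Poisson 95% intervals. For HIP_4MPT it was 3382 CPM (3191 to 3581), and for PFC_4MPT 3366 CPM (3071 to 3682). The 4MPT intervals overlapped each other and lay above both 2MPT intervals, while the other host cells were at 47.6, 50.7, 46.5 and 60.5 CPM. After every cell was thinned to 500 mouse UMIs, a Slc2a1 UMI was in 50, 55.6, 80.6 and 84.4% of endothelial cells and in 1.69, 2.99, 1.91 and 4.2% of microglia-like cells.

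Of the other carriers named here, Slc7a5 alone was likewise higher in both 4MPT libraries than in both 2MPT libraries. Slco1a4, an organic anion transporter, was at 916, 2232, 1297 and 896 CPM, and Slco1c1, which carries thyroid hormone, at 1833, 1355, 749.9 and 1129 CPM. Slc7a5 and Slc3a2, the subunits of the large amino acid transporter LAT1, were at 524, 558, 819 and 727 CPM and at 524, 1276, 987 and 621 CPM. Slco1c1 was higher in both 2MPT libraries, while Slco1a4 and Slc3a2 were highest in PFC_2MPT. The drug pumps Abcb1a (P-glycoprotein) and Abcg2 were at 785, 797, 617 and 346 CPM and at 393, 717, 944 and 402 CPM. Mfsd2a, the lipid transporter that keeps brain endothelium low in vesicles, was at 655, 478, 289.5 and 466 CPM, and Tfrc, the transferrin receptor, at 393, 478, 214 and 134 CPM. Slc7a1, which carries arginine, was at 393, 1276, 504 and 381 CPM. The levels of Abcb1a, Mfsd2a and Tfrc were higher in both 2MPT libraries than in both 4MPT libraries, from 3 to 10 UMIs in each 2MPT library. For each of Slco1c1, Slc7a5, Abcb1a, Mfsd2a and Tfrc the counting intervals of the stages overlapped. Ager was the listed gene with no UMI in endothelium.

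**Figure D3:**
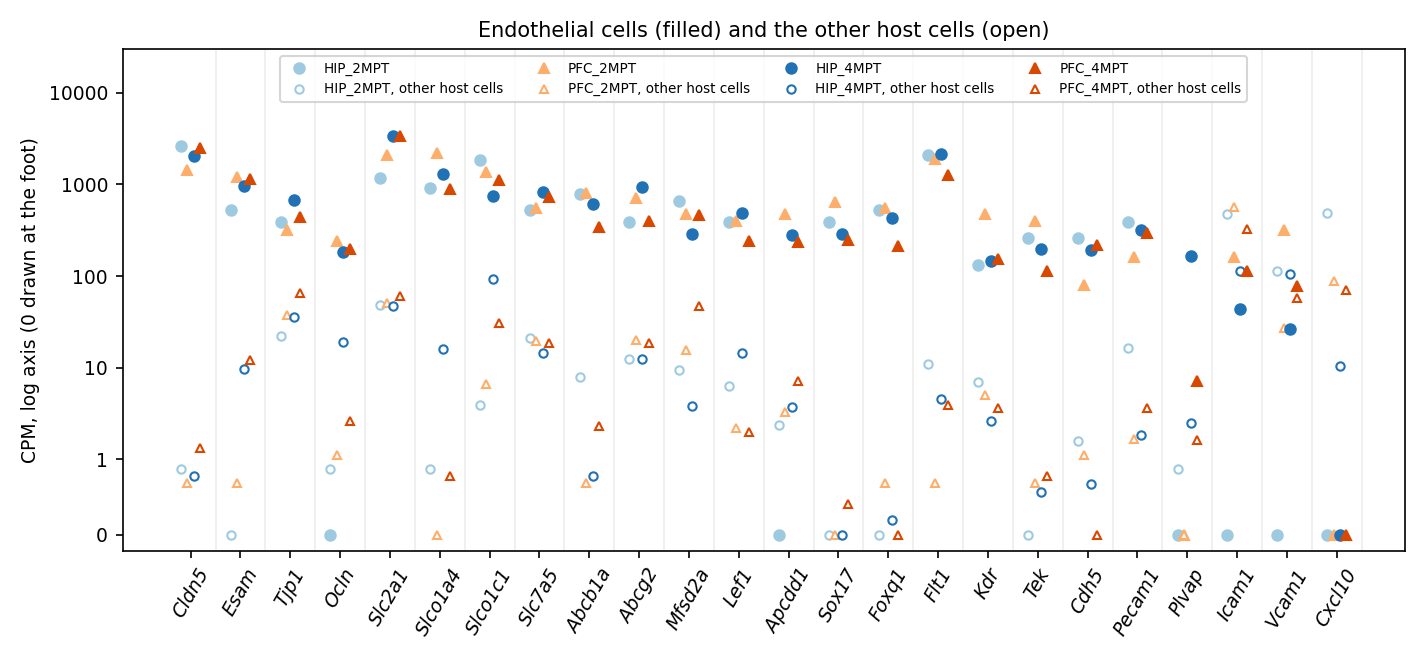
Level (CPM, log axis, 0 drawn at the foot) of 24 genes of junctions, transporters, Wnt signalling, VEGF and TIE signalling and inflammation in the endothelial cells (filled) and the other host cells (open) of each library. Junction and transporter genes lie well above the other host cells, Slc2a1 is at 3382 and 3366 CPM in the 4MPT libraries and at most 2073 CPM in both 2MPT libraries, and Cxcl10 is at 0 in endothelium.

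Caveolar genes were found at both sites, and Plvap came from a few cells of HIP_4MPT. The 6 genes of transcytosis and fenestration summed to 785, 717, 1051 and 797 CPM. Cavin2, Cavin1 and Cavin3, coat proteins of caveolae, were at 393, 159, 269 and 120.0 CPM, at 262, 239, 136 and 162 CPM and at 131, 79.7, 266 and 303 CPM, and Cav2, a caveolin, was at 0, 159, 113 and 106 CPM. Every one of the 6 was above the other host cells in both 4MPT libraries, beside 33.1% of detected genes, though for Plvap in PFC_4MPT this rests on 1 UMI. Plvap was at 0, 0, 165 and 7.06 CPM, and all 57 of its UMIs in HIP_4MPT were in 6 cells with between 2 and 17 each, while PFC_4MPT had 1 UMI. Outside endothelium, 20 of 1968 host cells of HIP_4MPT had a Plvap UMI and none had more than 2.

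The 6 Plvap cells, chosen after their values were seen and therefore given no test, had no UMI of several barrier genes found in the other 97 cells of HIP_4MPT, at median depths of 2745.5 and 1990.0 mouse UMIs. In their 22048 UMIs there was no UMI of Cldn5, Slc2a1, Abcb1a or Mfsd2a, which allows up to 136 CPM of each, while in the other 97 cells Cldn5 had 698 UMIs in 90 cells, Slc2a1 had 1168 UMIs in 95, and Abcb1a and Mfsd2a were in 74 and 44 cells. The 20 transporters summed to 1179 CPM in the 6 cells and 12455 CPM in the 97, and the 13 tight junction genes to 1451 and 4831 CPM. The 6 cells carried general endothelial genes, 3 of which had chosen them, with 157 UMIs of Ly6c1, 43 of Flt1, 33 of Egfl7, 29 of Emcn and 13 of Pecam1, each in all 6 cells. The VEGF and TIE receptors summed to 4309 CPM in the 6 cells and 4475 CPM in the 97.

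Several other genes were higher in these 6 cells. Gpihbp1, which anchors lipoprotein lipase to capillary endothelium, had 30 UMIs in 5 of the 6 and 3 UMIs in 1 of the 97. Igfbp3, a binding protein of insulin-like growth factors, had 55 UMIs in all 6 and 10 in 3 of the 97, and Cd300lg, a mucin-like receptor of endothelium, had 9 in 5 and 1 in 1. Cyp26b1, which degrades retinoic acid, had 19 UMIs in all 6 and 10 in 3 of the 97, and Rgcc, which also stands among the capillary genes, had 128 in all 6 and 209 in 56. MHC class I genes summed to 11928.5 CPM in the 6 cells and 6037 CPM in the 97. Of the 6 cells, 4 also carried at least 3 markers of another cell type, with 5, 3 and 5 microglia markers and, in 1 cell, 3 pericyte markers. Cst3, which microglia and choroid plexus express, had 675 of its 708 UMIs in 1 cell with 5 microglia markers. The part of RNA of other cells in these values was not tested.

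**Figure D4:**
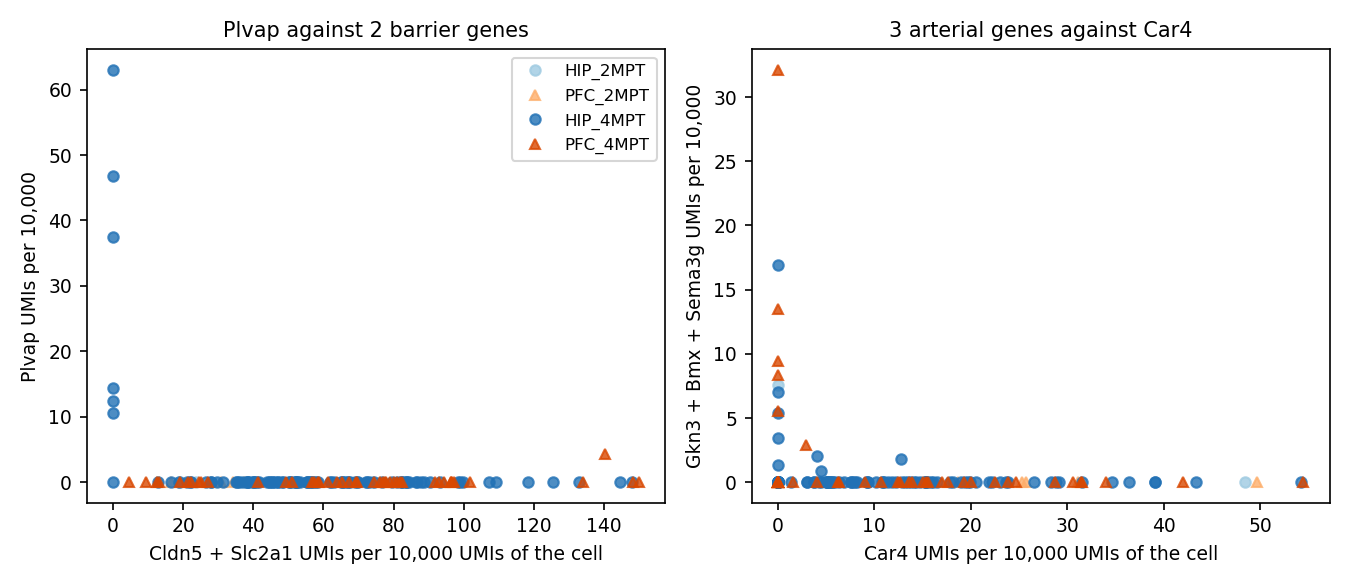
Each point is 1 of the 165 endothelial cells. Left, Plvap against Cldn5 plus Slc2a1 (UMIs per 10000 mouse UMIs of the cell); the 6 cells of HIP_4MPT with at least 2 Plvap UMIs have neither of the other genes. Right, the arterial genes Gkn3, Bmx and Sema3g together against Car4; 11 of the 15 cells with an arterial gene have no Car4 UMI.

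Receptors and targets of the Wnt pathway that maintains the barrier were all detected at 4MPT. Each of 16 listed genes had a UMI and exceeded the other host cells in both 4MPT libraries, beside 33.1% of detected genes, and the list summed to 1440.0, 2631, 1934 and 1602 CPM against 170.3, 175, 204 and 230.2 CPM. Lef1, a transcription factor of the pathway, was at 393, 399, 489 and 239.9 CPM, Apcdd1, a target that dampens the signal, at 0, 478, 278 and 233 CPM, and Sox17 at 393, 638, 289.5 and 247 CPM. Fzd4, the receptor for norrin, was at 0, 399, 116 and 127 CPM. PFC_2MPT held the highest values of Apcdd1, Sox17 and Fzd4, from 6, 8 and 5 UMIs. The co-receptors of Wnt7 ligands Adgra2 (GPR124) and Reck were at 0, 79.7, 52.1 and 28.2 CPM and at 0, 0, 37.6 and 14.1 CPM, and Axin2, a feedback target, at 0, 0, 37.6 and 14.1 CPM. Reck and Axin2 had no UMI at 2MPT, where the depth does not reach such levels.

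The transcription factors of endothelium summed to 5891, 6936, 5964 and 5921 CPM over 18 genes, of which 17 exceeded the other host cells in both 4MPT libraries, beside 33.1% of detected genes. Klf2, a factor induced by blood flow, was at 1309, 2949.6, 2429 and 2583 CPM but was also at 915, 2546, 356 and 1046 CPM in the other host cells. Epas1, or HIF-2 alpha, was at 785, 399, 628 and 706 CPM, and Foxq1, a forkhead factor of brain endothelium, at 524, 558, 431 and 212 CPM against at most 0.551 CPM outside endothelium. The summed level was about the same in HIP_2MPT, HIP_4MPT and PFC_4MPT and was higher in PFC_2MPT, where Klf2 and Sox18 were highest. The PFC_2MPT level comes from 12544 mouse UMIs in all, and whether it exceeds the others beyond counting error was not tested.

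Receptors for vessel growth factors were present throughout. All 12 listed genes exceeded the other host cells in both 4MPT libraries, beside 33.1% of detected genes, and 9 did in all 4, beside 6.34%, with sums of 4451, 5261, 4465 and 3451 CPM. Kdr, the main signalling receptor for VEGF-A, was at 131, 478, 145 and 155 CPM, and Tek, which encodes TIE2, at 262, 399, 197 and 113 CPM. Eng and Acvrl1, co-receptor and receptor for BMP9, were at 655, 558, 356 and 438 CPM and at 524, 478, 269 and 275 CPM, and S1pr1, a receptor for sphingosine-1-phosphate, at 131, 558, 639.9 and 572 CPM. PFC_4MPT had the lowest sum, and Flt1, one of the genes that chose the cells, gave the largest part of the UMIs in each sum. Flt1 is also among the 12 and the 9, so that part of these counts was set by the choice. Robo4 and Flt4 had no UMI in the other host cells of any library.

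Apln and Pgf, genes of endothelial tip cells, came almost wholly from 2 cells at 4MPT. Apln, a ligand made by tip cells, was at 0, 0, 43.4 and 169 CPM, and Angpt2, which loosens vessels for sprouting, at 0, 0, 60.8 and 141 CPM. The cells with both, noted after the values were seen, were 1 cell of HIP_4MPT with 15 Apln, 11 Angpt2, 5 Pgf and 16 Adm UMIs, and 1 cell of PFC_4MPT with 21 Apln, 12 Angpt2, 17 Pgf, 8 Adm and 3 Esm1 UMIs. They held all 15 Apln UMIs of HIP_4MPT, 21 of 24 in PFC_4MPT and all 3 UMIs of Esm1 found in endothelium, and 11 of 21 and 12 of 20 Angpt2 UMIs. The Adm UMIs of HIP_4MPT, 70 in all, were spread over 22 cells. Neither cell carried 3 markers of another type. Cd34, Pdgfb, which recruits pericytes, and Plaur were at 131, 717, 307 and 311 CPM, at 0, 399, 220.0 and 233 CPM and at 131, 79.7, 130.3 and 191 CPM, and Kcne3 had no UMI.

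Of 11 Notch genes, 9 had a UMI in both 4MPT libraries and the list summed to 524, 1036, 976 and 1051.5 CPM. Hes1, a Notch target also used outside endothelium, was at 262, 478, 371 and 501 CPM against 99.2, 258, 106 and 231 CPM in the other host cells, and Hey1 at 131, 239, 57.9 and 70.6 CPM. Jag1, a ligand, was at 0, 159, 151 and 98.8 CPM and Notch1, its receptor, at 131, 0, 127 and 70.6 CPM. Dll4, the tip cell ligand, was at 0, 79.7, 92.7 and 49.4 CPM, and Dll1 had no UMI.

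Ligands that act on endothelium were read in the grafted human cells and in the endothelium itself. In human barcodes (over 80% human UMIs), VEGFA was at 7.91, 7.36, 7.31 and 16.4 CPM of human UMIs, VEGFB at 17.7, 69.8, 74.6 and 78.9 CPM and NDP, which encodes norrin, at 13.5, 18.1, 32.5 and 31.8 CPM. VEGFA was highest in PFC_4MPT, NDP was higher at 4MPT than at 2MPT, and VEGFB was lowest in HIP_2MPT. WNT7A was at 2.00, 0.460, 2.98 and 3.34 CPM and TGFB2 at 1.30, 2.76, 15.6 and 12.6 CPM. These are levels of whole libraries with 1 library each and no test. In endothelium Cxcl12, a chemokine that binds CXCR4, was at 1571, 2312, 782 and 332 CPM and Tgfb1 at 131, 239, 78.2 and 120.0 CPM, whereas Vegfa had 3 UMIs in PFC_4MPT and none elsewhere.

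Human endothelium was not detectable as a group. Of 10 human endothelial genes, at least 3 were found in 2 of 9049 human barcodes in HIP_2MPT, or 0.0221% (0.00268 to 0.0798%), and in 0 of 6122, 7078 and 9932 in the other libraries, where 3 barcodes, the floor used for a count of 0, would be 0.0490, 0.0424 and 0.0302%. The first is an exact interval and the others are floors, and all limit barcodes with a UMI of these genes, not cells that express them. Single genes did have UMIs. CLDN5 had 96, 96, 95 and 170 UMIs, in up to 1.69% of human barcodes, and EGFL7 had 119, 152, 86 and 121, in up to 2.34%. KDR, the receptor, had 1 UMI in HIP_2MPT and none in the other libraries, and the remaining 7 genes had between 0 and 19 UMIs in a library.

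Genes of all 3 vessel segments were found in both 4MPT libraries. The 10 capillary genes summed to 6676, 7812.5, 5313 and 4686 CPM, against 72.6, 134, 87.8 and 251 CPM in the other host cells. The 14 arterial genes summed to 524, 957, 831 and 1588 CPM against 18.7, 157, 99.4 and 382 CPM. For the 13 venous genes it was 131, 1196, 1888 and 805 CPM against 686, 754, 367 and 521 CPM, so endothelium was lower in HIP_2MPT. Above the other host cells in both 4MPT libraries were 9 capillary, 9 arterial and 5 venous genes, beside 33.1% of detected genes. In all 4 libraries 8, 2 and 0 were, beside 6.34%. Lcn2, described below, gave 1100.2 CPM of the venous sum in HIP_4MPT. Spock2, a proteoglycan, was at 2487, 1116, 845 and 565 CPM, and Car4, a membrane carbonic anhydrase of capillaries, at 524, 1754, 1028 and 1291 CPM. Rgcc, a regulator of the cell cycle found in capillary endothelium, was at 262, 877, 976 and 565 CPM. Spock2 and Cxcl12 were higher in each 2MPT library than in each 4MPT library. Of arterial genes, Tm4sf1 was at 131, 717, 373 and 819 CPM, Mgp, or matrix Gla protein, at 0, 0, 235 and 226 CPM, and Gkn3, a gene of brain arteries, at 131, 0, 11.6 and 120.0 CPM. Without cells with markers of another type Mgp was at 119.6 CPM in HIP_4MPT and 78.2 CPM in PFC_4MPT, where 21 of its 32 UMIs were in 1 cell with 5 pericyte markers.

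Cells with arterial genes were few and differed from the rest in other vessel genes, by a choice made after the values were seen. A UMI of Gkn3, Bmx or Sema3g was in 15 cells (1, 0, 8 and 6). Car4 was in 4 of these 15 and in 106 of the other 150, while Tm4sf1 was in 14 of 15 and 69 of 150 and Mgp in 7 of 15 and 11 of 150. Slc2a1 was in all 15 and Cldn5 in 14. Their median depth was 3583 mouse UMIs, against 1904.5 in the others, so that depth differed as well and its part was not tested.

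Among the venous genes Lcn2 stood out in HIP_4MPT. Lcn2, or lipocalin 2, an iron-carrier binding protein of the acute phase, was at 0, 0, 1100.2 and 56.5 CPM, with 380 UMIs in 17 of 103 cells of HIP_4MPT, 155 of them in 1 cell, and 8 UMIs in 4 of 45 cells of PFC_4MPT. The cell with neutrophil markers, named below, held 6 of the 380. Il1r1, the interleukin-1 receptor, was at 0, 79.7, 307 and 49.4 CPM, and in HIP_4MPT it was in 12 of the 17 Lcn2 cells and in 15 of the other 86, at median depths of 5969 and 1959.5 UMIs, so that depth differed as well and its part was not tested. Slc38a5, a glutamine transporter of venous and capillary endothelium, was at 0, 478, 95.5 and 353 CPM, and Nr2f2, the factor COUP-TFII of veins, at 131, 0, 89.8 and 42.3 CPM. Ackr1 and Selp, genes of larger veins, had no UMI in any library, and Vwf was at 0, 79.7, 98.4 and 56.5 CPM.

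Genes through which activated endothelium holds leukocytes were above the other host cells in some cases and below in others. Of 16 genes of leukocyte adhesion and inflammation, 3 exceeded the other host cells in both 4MPT libraries, beside 33.1% of detected genes, and the list summed to 1440.0, 2551, 3474 and 1976 CPM against 3554, 3084, 1214 and 2425 CPM. The endothelial sum was above the other host cells in HIP_4MPT and below them elsewhere. In HIP_4MPT Lcn2, a gene of the list, gave 1100.2 of the 3474 CPM. The other host cells were also lowest there, at 1214 CPM, and choroid plexus markers took 302290 CPM of their UMIs. The part of either in the contrast was not tested. Vcam1 was at 0, 319, 26.1 and 77.6 CPM, Icam1 at 0, 159, 43.4 and 113 CPM and Sele, or E-selectin, at 0, 0, 11.6 and 0 CPM. Icam1 was lower in endothelium than in the other host cells of every library, where it was at 476, 562, 115 and 325 CPM. The chemokine gene Ccl2 had 1 UMI, in PFC_4MPT, and Cxcl10 none, whereas the other host cells were at 726, 196, 27.5 and 112 CPM and at 494, 89.2, 10.5 and 70.0 CPM. Nfkbia and Cebpd, general response genes, were at 655, 1515, 1343 and 1122 CPM and at 524, 239, 429 and 388 CPM.

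Most interferon-induced genes had higher levels in endothelium than in other host cells at 4MPT. Of 24 genes, 22 exceeded them in both 4MPT libraries, beside 33.1% of detected genes, and 6 did in all 4 libraries, beside 6.34%, and the list summed to 3534, 3747, 5330.3 and 4813 CPM against 2678.5, 654, 1107 and 1119 CPM, with the 4MPT sums of endothelium above those at 2MPT. Ifitm3 and Ifitm2, membrane proteins that block virus entry, were at 1309, 1355, 2093 and 1997 CPM and at 916, 877, 1097 and 614 CPM. Bst2, or tetherin, was at 262, 0, 440.1 and 438 CPM and Isg15, a ubiquitin-like modifier, at 0, 399, 243 and 359.9 CPM. Ifit1, a classical induced gene, was at 0, 0, 57.9 and 70.6 CPM.

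MHC class I genes summed to 4844, 5899, 6413 and 4291 CPM in endothelium and to 10410.1, 4148, 1962 and 2477 CPM in the other host cells, so that endothelium was below them in HIP_2MPT and above them in the other 3 libraries. H2-D1 was at 1964, 2710.5, 3133 and 2131 CPM, H2-K1 at 524, 478, 976 and 677 CPM and B2m, the light chain, at 1309, 1276, 1097 and 713 CPM. No MHC class II gene exceeded the other host cells in a 4MPT library, with sums of 916, 0, 81.1 and 169 CPM against 21335, 689.7, 301 and 724 CPM, and Ciita, their master regulator, had no UMI. H2 genes share close copies, so reads may be split among them.

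Basement membrane genes summed to 3404, 2073, 3115 and 4065 CPM over 14 genes, each with a UMI in both 4MPT libraries. Sparc, a matrix glycoprotein, was at 1178, 1196, 1685 and 1997 CPM but at 537, 1498, 933 and 968 CPM in the other host cells. Col4a1, the collagen IV chain of vessel basement membrane, was at 131, 0, 327 and 494 CPM, and Fn1, or fibronectin, at 524, 399, 521 and 727 CPM. Col4a1 and Col4a2 had no UMI in PFC_2MPT, and Lamb2, a laminin chain, was at 655, 159, 46.3 and 70.6 CPM, with the 2MPT levels above, from 5 and 2 UMIs. Of 18 cell cycle genes, 8 had a UMI in HIP_4MPT and 15 in PFC_4MPT, and 2 exceeded the other host cells in both, beside 33.1% of detected genes. Mki67, a gene of dividing cells, had 4 UMIs in 3 cells of PFC_4MPT, 2 of which, with 16777 and 16391 UMIs, were the deepest of that library. It had no UMI in the other libraries, and dividing cells were not detectable at the depth of the 2MPT libraries.

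Genes of hypoxia and glycolysis, 15 of 16 of which were matched by symbol, summed to 2749, 3747, 4957 and 4559 CPM and include Slc2a1. Ldha was at 655, 638, 463 and 353 CPM and Ndrg1 at 393, 319, 350.3 and 134 CPM, while the hypoxia targets Car9 and Egln3 had no UMI. Heat shock genes summed to 6676, 8530.0, 8645 and 13655 CPM and were highest in PFC_4MPT. The other host cells were at 4992, 8759, 3878 and 5424 CPM, and in PFC_2MPT they were above endothelium. Of the 11 genes, 5 exceeded the other host cells in both 4MPT libraries, beside 33.1% of detected genes. Hspb1, a small chaperone, was at 3273, 3348, 3721 and 5589 CPM against at most 125 CPM in the other host cells. Immediate early genes, which dissociation can induce, summed to 16625, 14748, 12922 and 12978 CPM and the other host cells to 20267, 33758, 7997 and 17609 CPM. Fos, Junb and Jund were at 2618, 1196, 1439 and 1334 CPM, at 2225, 1594, 1578 and 1538 CPM and at 2225, 2710.5, 1937 and 1877 CPM. Mitochondrially encoded genes summed to 43330.3, 34359, 34397 and 57663 CPM, and PFC_4MPT was highest in endothelium as in the other host cells.

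Sums over the endothelial cells were tested between the stages, with HIP and PFC as the 2 libraries of a stage. No gene was called. With edgeR's quasi-likelihood test, 0 of 1559 genes (0%) had an adjusted p under 0.05, 111 (7.12%) had an unadjusted p under 0.05, and the smallest adjusted p was 0.610, while DESeq2 called 0 with 55 at an unadjusted p under 0.05. Of the 289 listed genes, 132 passed the filter on low counts, none was called, and 17 had an unadjusted p under 0.05. Nothing in the labels says that the libraries of a stage came from separate mice, and p-values measure only the spread between these libraries.

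Some listed genes whose levels were separated by stage are given with their estimates, none of which passed the test. For Slc2a1, with the levels given above, the log2 fold change of 4MPT over 2MPT was 1.33 (SE 0.34, adjusted p = 0.610 with edgeR), and each 4MPT library was above each 2MPT library. For Cxcl12, at 1571, 2312, 782 and 332 CPM, it was -1.48 (SE 0.48, adjusted p = 0.610 with edgeR), and here both 4MPT libraries lay below. For Spock2 it was -0.96 (SE 0.45, adjusted p = 0.699 with edgeR), again with both 4MPT levels below both 2MPT levels. The counting intervals of HIP_4MPT and HIP_2MPT overlapped for Cxcl12, and for Spock2 those of both 4MPT libraries overlapped that of PFC_2MPT. Without the filter on low counts, Slc2a1 passed the threshold with a log2 fold change of 1.93 (edgeR adjusted p = 0.0105), and no other alternative brought it under 0.05. Without PFC_2MPT it was 2.29 (edgeR adjusted p = 0.404), and without each of the other libraries it was between 1.05 and 1.25. Tmem252, at 262, 0, 654 and 699 CPM, and Mgp and Msn, which had no UMI at 2MPT, were among the genes with an unadjusted p under 0.05, and the 2MPT depth allows no bound on their change that a test supports.

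Against a median log2 fold change of 0.20 over all genes with a UMI in each group, the lists lay on either side. The median was 0.52 for 7 tight junction genes, 0.27 for 18 transporters, 0.30 for 7 adherens junction genes and 0.00 for 10 transcription factors. It was -0.28 for 9 VEGF and TIE receptors, 1.02 for 8 interferon response genes, 0.87 for 6 basement membrane genes and 0.90 for 9 heat shock genes. None of these lists held a called gene. The 3 interferon genes with an unadjusted p under 0.05 did not share a direction, with log2 fold changes of 0.94 for Ifitm3, 2.42 for Bst2 and -2.05 for Irf9 (edgeR adjusted p of 0.610, 0.661 and 0.610).

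**Figure D5:**
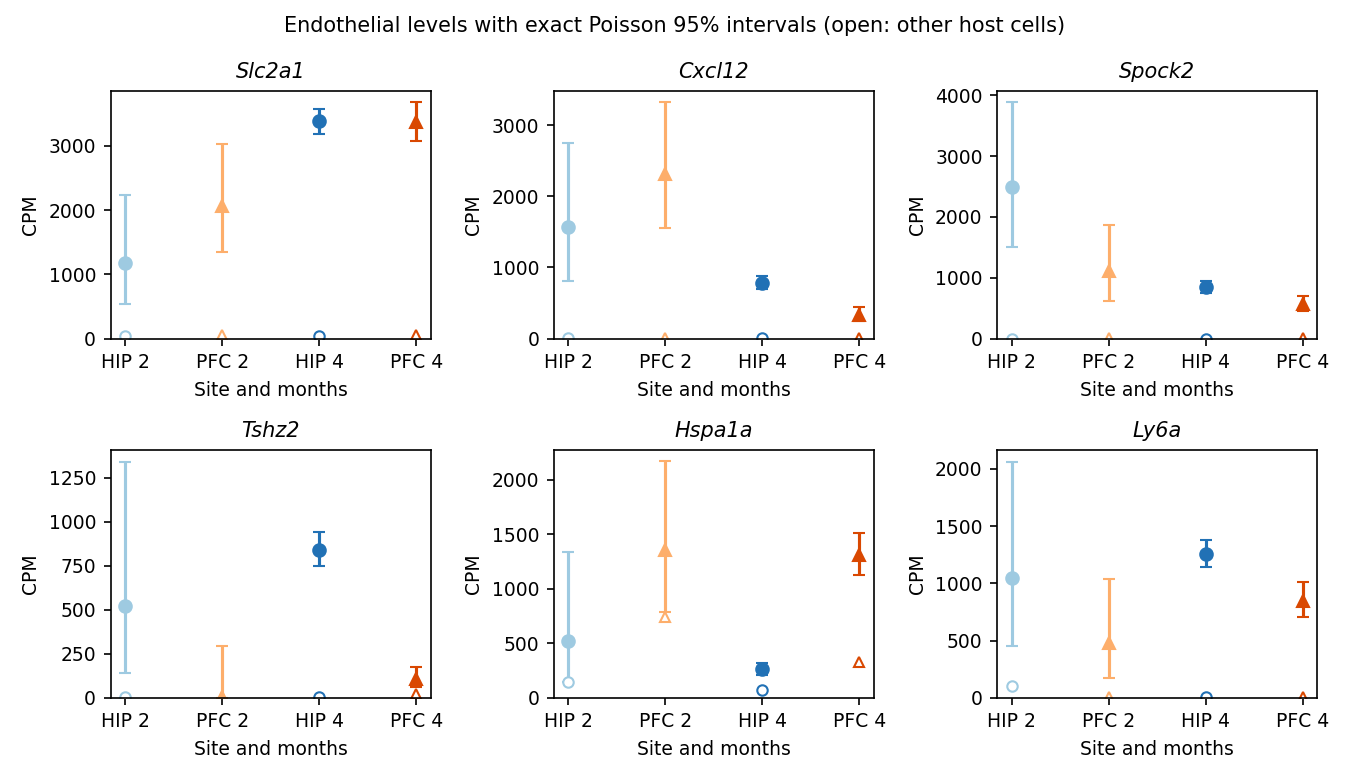
Level (CPM) of 6 genes in the endothelial cells of each library with exact Poisson 95% intervals that cover counting error only, and in the other host cells (open). Slc2a1 is higher and Cxcl12 and Spock2 are lower in both 4MPT libraries than in both 2MPT libraries, and Tshz2 is at 524 and 840 CPM in the HIP libraries and at 0 and 106 CPM in the PFC libraries.

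Between the sites, with the stage as a covariate, edgeR's quasi-likelihood test called 0 of 1559 genes (0%), with 74 (4.75%) at an unadjusted p under 0.05 and a smallest adjusted p of 0.566, and DESeq2 called 0 with 3 at an unadjusted p under 0.05. The median log2 fold change of PFC over HIP was 0.02 over all genes with a UMI in each group. It was 0.33 for the tight junction genes, -0.04 for the transporters and 0.88 for the heat shock genes.

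Tshz2, a zinc finger transcription factor, was higher in the HIP library of each stage and had the second lowest unadjusted p, after Ccl4. It was at 524 CPM (143 to 1341) in HIP_2MPT and at 0 CPM in PFC_2MPT, where 3 counts would be 239 CPM, and at 839.6 CPM (746 to 942) for HIP_4MPT, against 106 CPM (59.2 to 175) for PFC_4MPT. The counting intervals of the sites overlapped at 2MPT, from 4 UMIs against 0, and not at 4MPT. At 4MPT its UMIs were in 73 of 103 HIP cells and in 12 of 45 PFC cells (31.1 and 6.67% after thinning to 500 UMIs), and no cell held more than 24 of the 290 UMIs of HIP_4MPT. The log2 fold change was -3.12 (SE 0.58, edgeR adjusted p = 0.566), which is no call, and it was called under 7 of the alternatives, with adjusted p between 0.000416 and 0.0312. The other host cells were at 5.47, 7.71, 4.53 and 21.9 CPM. Tshz2 was picked after its values were seen.

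Hspa1a, the inducible chaperone HSP70, was at 524, 1355, 263 and 1306 CPM and Hspa1b, its near-identical copy, at 655, 717, 197 and 1179 CPM, so both levels were higher in PFC at each stage, with counting intervals that overlapped at 2MPT and not at 4MPT, and the reads of the pair may be split between them. For Hspa1a the log2 fold change was 2.10 (SE 0.43, edgeR adjusted p = 0.694), which is no call, and it was called under 3 of the alternatives, with adjusted p of 0.0143 with over 1000 UMIs, 0.00678 with a limit on mitochondrial share and 0.0214 with at least 4 of the 6 genes required. The other host cells were likewise higher in PFC at each stage, at 147, 744, 69.2 and 324 CPM. Ccl4, a microglial chemokine, had 104 of its 108 UMIs in PFC_4MPT in 1 cell, and without cells that carry markers of another type its level there was 26.1 CPM in place of 762 CPM. Rgs5, a pericyte gene, was at 131, 79.7, 617 and 134 CPM, and without those cells it was at 154 CPM in HIP_4MPT and 43.4 CPM in PFC_4MPT.

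Whether a difference between the stages was particular to endothelium was tested against the microglia-like host cells of the same libraries, which numbered 2416. By edgeR's quasi-likelihood test of the interaction, 3 of 7569 genes (0.0396%) had an adjusted p under 0.05 and 352 (4.65%) an unadjusted p under 0.05, while DESeq2 called 0, with 131 at an unadjusted p under 0.05. The 3 genes were S100a9, S100a8 and Ly6a.

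S100a9 and S100a8, the subunits of calprotectin made by neutrophils, rested on 1 cell. All 224 S100a9 and 131 S100a8 UMIs of endothelium were in a single cell of HIP_4MPT that carried the neutrophil markers, and without cells with markers of another type neither gene had a UMI in endothelium. Their fitted log2 differences of 20.52 and 14.00 (edgeR adjusted p of 1.71e-17 and 3.87e-05) are therefore values of that cell, and they depend on counts of 0.

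Ly6a, which encodes the surface antigen Sca-1 of endothelium and of interferon-exposed cells, was at 1047, 478, 1254 and 847 CPM in endothelium and at 85.0, 1.49, 2.19 and 5.01 CPM in microglia-like cells. In endothelium the levels of the stages overlapped, whereas HIP_2MPT stood above the other libraries in microglia-like cells, from 64 UMIs. The stage difference of endothelium exceeded that of microglia-like cells by 4.47 on the log2 scale (SE 0.90, edgeR adjusted p = 0.00190), and by 4.77 (adjusted p = 0.00143) without cells with markers of another type. Without PFC_2MPT it was 5.81 (adjusted p = 1.18e-08), whereas without HIP_2MPT it was 0.89 (adjusted p = 0.927), and it was also lost without HIP_4MPT (3.47, adjusted p = 1), without PFC_4MPT (5.10, adjusted p = 0.0878) and with DESeq2 (3.25, adjusted p = 1.00). In endothelium alone the log2 fold change of Ly6a between the stages was 0.88 (SE 0.47, edgeR adjusted p = 0.722).

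No gene of the 23 lists was called in this test. Beside 4.65% of all genes, an unadjusted p under 0.05 was found for 8 of 22 interferon response genes, 5 of 13 MHC class I genes, 2 of 4 MHC class II genes, 4 of 11 heat shock genes and 4 of 19 transporters, and for 3 or fewer genes of each other list. Those lists are short, with 2 of 8 tip cell genes, 2 of 8 angiogenic ligands and 0 of 10 tight junction genes. The differences at such a p were positive in the interferon, both MHC and heat shock lists and of both signs among the transporters. Among them were Isg15 (2.41, SE 0.89) and H2-K1 (2.63, SE 0.81), with adjusted p of 0.791 and 0.698 in edgeR. The median difference was 1.53 for 15 interferon genes, 1.35 for 10 MHC class I genes, 2.89 for 3 MHC class II genes, 1.93 for 9 heat shock genes and 0.64 for 19 transporters, beside 0.35 for all 4233 genes with a UMI in each group. The MHC class II value rests on few UMIs, with sums of 916, 0, 81.1 and 169 CPM in endothelium. In HIP_4MPT 24 of these UMIs were in the 6 Plvap cells, some of which carried microglia markers, and 4 in the other 97 cells. Among the other lists it ran from -3.80 for 3 arterial genes to 1.61 for 5 tip cell genes, with 1.35 for 13 endothelial transcription factors. H2-K1 in microglia-like cells was at 1562, 600.0, 387 and 596 CPM, highest in HIP_2MPT, and in endothelium at 524, 478, 976 and 677 CPM. Slc2a1 had a difference of 2.00 (SE 0.73, edgeR adjusted p = 0.791), and Slco1c1 one of -4.55 (SE 1.22, adjusted p = 0.205). This test thus did not show that the higher Slc2a1 level at 4MPT was particular to endothelium.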

How the data were processed

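The 4 graft libraries were analysed from the UMI counts that the authors deposited, made with 10x Cell Ranger against a joint human and mouse reference. The matrix headers name Cell Ranger 5.0.0 and the submitters' processing notes 3.1, and mouse features carry an mm10 prefix whereas the study's methods name a later mouse build, so the counts are described by the mm10 prefix and no coordinate is given. The authors' files are per sample, unfiltered for species, and no doublet caller was run here: barcodes with 20 to 80% human UMIs and cells with 3 or more markers of another type are counted beside the results. Counts were summed per library over the endothelial cells, filtered with filterByExpr, scaled by TMM and tested with edgeR 4.0.16 (quasi-likelihood, limma 3.58.1, R 4.3.3), with Benjamini-Hochberg adjustment over all genes tested and a threshold of 0.05. Tested on simulated data, it missed part of the changed genes in each comparison, most in the stage difference, and made more false calls between sites than in the other comparisons. DESeq2 1.42.0 was an alternative, as were other normalization, filters on cells and genes, and leaving out each library. Intervals, shares, levels and figures were computed in Python 3.11.15 (numpy 2.4.6, scipy 1.17.1, pandas 2.3.3, matplotlib 3.10.9). Libraries, not cells, were the replicates, with endothelial depths of 7639 to 345383 UMIs, and counts of cells with a UMI are unthinned except where thinning to 500 UMIs is stated.

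Members and gene lists were chosen with earlier results of these data known. Named were the 6 genes of the choice, for each list the called genes and up to 4 genes of highest mean CPM, for each comparison up to 10 called genes a direction, and the 20 genes of highest ratio to other host cells. Other genes were named after their values were seen.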

Additional observations from a re-analysis of the deposited data

Results flagged for a closer look

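The stage difference of endothelium differed from that of microglia-like cells in 3 genes by edgeR's quasi-likelihood test of the interaction. The log2 difference was 20.52 for S100a9 and 14.00 for S100a8, both from 1 cell of HIP_4MPT that carried neutrophil markers, and 4.47 for Ly6a, where HIP_2MPT set the microglia-like side. The part of neutrophil RNA in the S100a8 and S100a9 values was not tested beyond leaving that cell out, after which neither gene had a UMI in endothelium.

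Outside the host cells, 54 barcodes with 20 to 80% human UMIs carried at least 3 of the 6 endothelial genes. The 34 of PFC_4MPT had Cldn5 at 3516 CPM and Slc2a1 at 4172 CPM of their mouse UMIs, and the 19 of HIP_4MPT had Cldn5 at 2008 CPM and Slc2a1 at 4037 CPM. Their median human share was 28.5% in PFC_4MPT and 52.3% in HIP_4MPT. Why they held both species was not tested.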

How the results depend on the processing

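The endothelial share itself was higher in both 4MPT than in both 2MPT libraries under every alternative run, but its intervals overlapped between the stages for PFC_4MPT with a human share under 10% (from 1.74%, against up to 2.53 and 2.31% at 2MPT) and without cells with markers of another type (from 2.18%, against up to 2.20% in PFC_2MPT). In HIP_2MPT the share was 0.546% with at least 4 of the 6 genes required. The share moved beyond its interval where cells with markers of another type were left out, to 4.06% in HIP_4MPT. Without those cells the tight junction genes summed to 4899 and 5567 CPM and the transporters to 12715 and 11568 CPM in HIP_4MPT and PFC_4MPT. Thinning to 500 UMIs lowered the share of cells with a Cldn5 UMI to 58.3 and 75.6% and with a Slc2a1 UMI to 80.6 and 84.4% in those libraries.

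Counts of called genes depended on the settings. Between the stages edgeR called 20 genes without the filter on low counts and 0 to 6 when a library was left out, 0 without HIP_2MPT, 4 without PFC_2MPT, 6 without HIP_4MPT and 5 without PFC_4MPT. Where that left 1 library in a stage, it was assumed to vary like the other stage. With the site as a block there were 0 calls. Between the sites edgeR called 5 genes with at least 4 of the 6 genes required, 1 with RLE factors, 8 with a human share under 10%, 3 with a limit on mitochondrial share, 15 without the filter on low counts, 4 without the stage in the fit, 5 with over 1000 UMIs and 2 without the 6 Plvap cells, an alternative added after seeing the data. Leaving out a library there left no residual degrees of freedom. The interaction gave 0 calls with DESeq2, 1 without cells with markers of another type and 0 to 9 when a library was left out. The cause was not tested in any of these.

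Depth limits what a count of 0 shows. The 17 cells at 2MPT held 20183 UMIs together, and a count of 0 there allows up to 149 CPM. There was 1 library per site and stage, and site, animal and library cannot be told apart.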
